A study of Mus musculus with 12 samples.

Results

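The 3NC group is one of 4 groups of mouse testes in this study, and the 3 libraries labelled 3NC are described here against the 9 libraries of the other groups, out of 12 in all. Members were taken from the labels. The comparison itself was selected on the measured read counts of these same libraries, in which 3NC was already known to stand apart. Its differences are therefore given as a description, and its p-values are not printed. An adjusted p under 0.05 serves only to pick and count genes in this comparison.

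Whole testes of F0 mice were profiled by RNA sequencing, with the strain written as "IRC mouse" in the labels. Viruses were delivered to the testes to raise or to inhibit a long noncoding RNA, lncRNA8276. The group OV was given overexpression, KD was given knockdown, and the other two groups are called 5NC and 3NC, abbreviations that the labels do not spell out; both were read here as control viruses. All 4 groups have 3 libraries each, and the labels give neither the age of the mice nor the vector, its promoter or the time after delivery. Nothing in the labels says whether the libraries of a group come from separate animals, so spreads and p-values refer to these samples only. lncRNA8276 itself is not analysed here, because none of the symbols in the table holds its number.

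Much of what follows concerns immediate early genes and the sterol pathway. Immediate early genes, such as the EGR and FOS families, are switched on within minutes by growth factor, hormone or stress signals, without new protein synthesis, and their products drive later genes, including the feedback inhibitors of the same signals. Sterol synthesis is governed by SREBP factors, which are held in the endoplasmic reticulum by INSIG proteins when sterols are plentiful. In the testis, cholesterol is also the starting material of androgen synthesis in Leydig cells.

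Libraries held between 15448442 and 16355720 estimated reads, and between 18611 and 18788 genes had a read. Values below are CPM (normalised read counts), the reads of a gene scaled to a library total corrected for composition; they compare libraries, not genes of different length. A floor of 3 reads equals 0.183 to 0.197 CPM and covers counting error only. On the first principal component (19.1% of the variance) 3NC replicate 2 scored 29, away from its group (−12 and −10.6) and beside OV replicates 1 and 3 (30.2 and 30.3). Summed levels of markers of elongating spermatids were 30200 to 36100 CPM in 3NC and 29300 to 37500 CPM in the other libraries. Taken as sums, Leydig, Sertoli and spermatocyte markers had reads in every library. In whole tissue, fewer cells of a type and less RNA per cell cannot be told apart.

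The genes higher in 3NC than in the mean of the other 3 groups included the immediate early factors Egr1 and Egr2 and the chemokines Ccl2 and Ccl7. The growth factor feedback inhibitor Errfi1 and sterol synthesis enzymes such as Hmgcs1 were also among them. Egr1 does not set 3NC apart from KD, with means of 50.5 CPM in 3NC and 52 CPM in KD. A smaller set was lower, among it Txnip, an inhibitor of thioredoxin and glucose uptake, and Osr1, a transcription factor of mesenchymal cells. In edgeR, 3NC minus the mean of the other 3 groups had an adjusted p under 0.05 for 81 of 16320 genes (0.496%), of which 71 were higher in 3NC (0.435%) and 10 lower (0.0613%). These 81 are called the 3NC genes below, although some of them were as high in KD as in 3NC. The median log2 fold change was 1.07 in the higher genes (range 0.27 to 3.97) and −1.03 in the lower ones, while the median over all genes tested was 0.

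Of the 71 higher genes, 65 had all 3 libraries of 3NC above all 9 others, and the 10 lower genes had all 3 below. Over all genes tested, 145 (0.888%) lay above in this way and 112 (0.686%) below. Such separation was required of the genes named by rule below, so for them it restates the choice. The same contrast called 6 genes for 5NC (0.0368%), 7 for KD (0.0429%) and 17 for OV (0.104%). 3NC did not have the most calls in every analysis. DESeq2 called 115 genes for 3NC and 141 for OV, limma voom with sample weights 160 and 270, and without 3NC replicate 2 edgeR called 44 for 3NC and 132 for OV. By separation alone 5NC was ahead, with 204 genes above all 9 other libraries and 219 below.

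**Figure D1:**
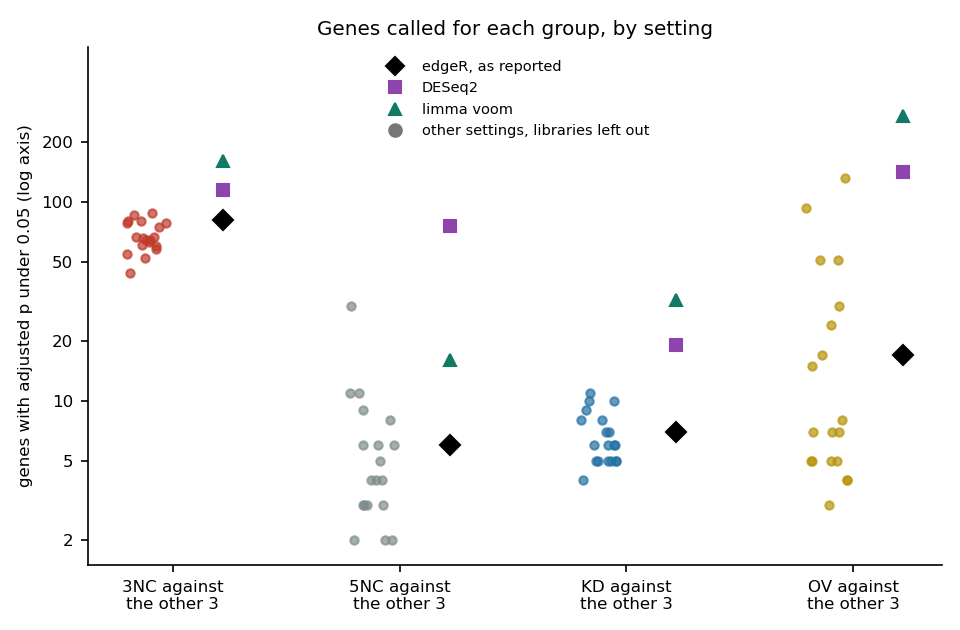
Number of genes with an adjusted p under 0.05 (log axis) when each group is set against the mean of the other 3. The black diamond is the edgeR count, the square DESeq2, the triangle limma voom, and each dot another setting or a left-out library. The 81 calls of 3NC lie above the 6, 7 and 17 of 5NC, KD and OV in edgeR, but the counts of OV pass those of 3NC in DESeq2 and voom.

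The 3 libraries of 3NC did not share the higher genes evenly. 3NC replicate 2 was the highest of the 3 in 52 of the 71 (73.2%), against 41.9% of all genes tested. Without it, 42 of the 81 genes were still called; without replicate 1, 46 were; without replicate 3, 55 were. In all 12 rounds of leaving out a library, 38 genes were called. The sign of the fold change was kept by all 81 in every setting that tested them. Those settings reuse the libraries on which the 81 were picked, so the kept sign is no independent support. Whether the state of this library has a part in the calls was not tested.

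Immediate early factors of the EGR, AP-1 and SRF classes were higher in 3NC than in 5NC and OV, and KD was as high as 3NC in several of them. Of 15 listed, 12 were higher in 3NC than in the mean of the others and 3 lower. In the list 7 were called higher (46.7%) and 0 lower, and the median log2 fold change was 0.88 (0 over all genes). Over all 16320 genes tested, 8008 were higher and 8312 lower, 0.435% were called higher and 0.0613% called lower. The counts of this and every later list are to be read beside these shares. By group, the list median was 1.3 against 5NC, −0.04 against KD and 1.42 against OV. These 3 comparisons share the 3NC libraries.

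Egr1, a zinc finger factor that couples growth factor and hormone signals to transcription (gene 13653, chromosome 18, 34861207 to 34864956), had 54.1, 50.7 and 46.8 CPM in 3NC. It had 6.11, 3.29 and 4.1 in 5NC, 53.4, 52.4 and 50.3 in KD, and 5.38, 3.76 and 3.81 in OV. The libraries thus fell into a high set, 3NC and KD, and a low set, 5NC and OV, with no library between. The log2 fold change of 3NC was 2.33 ± 0.12 (SE) against the mean of the others, made of 3.48 against 5NC, −0.04 against KD and 3.55 against OV.

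Btg2, an antiproliferative cofactor of mRNA deadenylation, had 24, 23.5 and 21.9 CPM in 3NC, and 21.7, 31.5 and 15.9 in KD. In 5NC it had 5.5, 4.01 and 3.91, and in OV 6.22, 4.14 and 4.43. For Btg2 all 3 libraries of 3NC lay inside the range of KD and above every library of 5NC and OV, with log2 fold changes of 2.37, 0 and 2.23 against 5NC, KD and OV. Fosb, an AP-1 subunit, had 5.91, 6.51 and 4.92 CPM in 3NC, 5.64 to 7.91 in KD and at most 2.5 in 5NC and OV. Zfp36, which binds AU-rich elements and speeds mRNA decay, had 13.6, 14.4 and 12.1 CPM in 3NC and 10 to 17.4 in KD, against at most 6.35 in 5NC and OV. Junb, a further AP-1 subunit, had 15.4, 10.5 and 15.5 CPM in 3NC, 13 to 19 in KD and at most 6.23 elsewhere; it lies outside the rule for named genes and was picked after its values were seen. The calls of Fosb and Zfp36 in the 3NC contrast were lost without 3NC replicate 1 or 2 (log2 fold changes of 0.78 to 0.98 and 0.88 to 1.02 over the left-out libraries), and that of Junb in 10 of the 12 rounds (0.97 to 1.23).

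Differences among 5NC, KD and OV do not use the 3NC levels, which enter only the shared estimate of spread, so this comparison could be tested. It called 7 of 16320 genes (0.0429%; 1346, or 8.25%, had an unadjusted p under 0.05), each with its highest mean of the 3 groups in KD. They were Egr1 (edgeR adjusted p = 2.05e-08), Fos (0.00011), Btg2 (0.000213), Fosb (0.000295), Ier2 (0.00236), Zfp36 (0.00819) and Junb (0.00896). By count 4 belong to the EGR, AP-1 and SRF list (15 tested) and 3 to the list of BTG, ZFP36, IER and GADD45 genes (13 tested). Both lists were chosen with earlier results of these data known, so these counts only describe. The 7 genes were called in every alternative that could be run for this comparison, except that Zfp36 was lost in limma on log2(FPKM + 1) and Zfp36 and Junb without KD replicate 1 or KD replicate 2, where their largest adjusted p was 0.1. Of the 81 3NC genes, 16 had an unadjusted p under 0.05 in this comparison. Of the 7, 5 are also 3NC genes. Fos and Ier2 are the exceptions, named here after their values were seen.

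Fos, the partner of JUN proteins in AP-1, had 3.73, 4.81 and 2.89 CPM in 3NC, 8.73, 18.3 and 10.5 in KD, 1.28, 0.92 and 0.769 in 5NC, and 0.769, 0.815 and 0.187 in OV. Ier2, a nuclear early response protein, had 6.68, 4.38 and 6.1 CPM in 3NC, 7.84, 10.9 and 8.16 in KD, 2.63 to 4.03 in 5NC and 2.44 to 2.76 in OV. For both genes 3NC stood between KD and the other 2 groups, below every KD library and above every 5NC and OV library. Their log2 fold changes for 3NC against the mean of the others were 0.97 ± 0.29 for Fos and 0.45 ± 0.17 for Ier2. For Fos the direction turned with the summary: a fit of 2 groups gave −0.3, and the mean was 3.81 CPM in 3NC and 4.7 CPM over the 9 others.

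**Figure D2:**
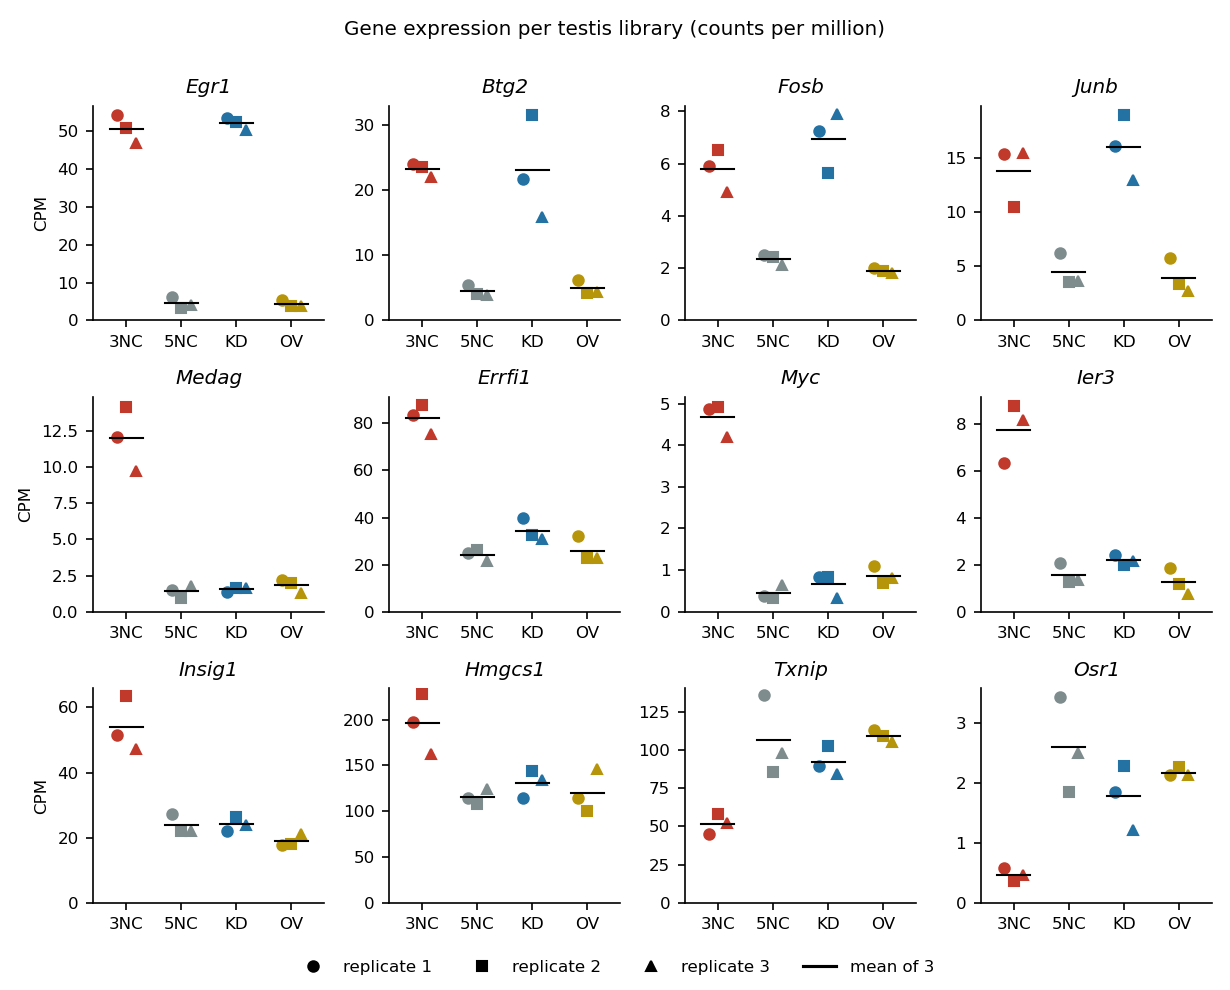
CPM of 12 genes in each library, with points for the 3 replicates of a group and a black line at their mean; each vertical axis starts at 0. In the top panels, Egr1, Btg2, Fosb and Junb are high in both 3NC and KD, while the genes of the other panels, from Medag to Osr1, have 3NC alone above or below the 9 other libraries.

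In 8 of the 81 genes all 3 KD libraries lay above all 6 of 5NC and OV, a pattern found in 294 (1.8%) of all genes tested. Besides Egr1, Btg2, Fosb, Zfp36 and Junb these were Egr2, Atf3 and Dusp1. Egr2, a paralogue of Egr1 (gene 13654, chromosome 10, 67534469 to 67542188), had 4.5, 5.6 and 4.73 CPM in 3NC, and 0.313, 0.624 and 2.93 as the lowest, median and highest of the 9 others. Its log2 fold change was 2.56 ± 0.25, and no other library reached 3NC although the KD libraries were the nearest (3.1, 1.24 and 3.33 against 5NC, KD and OV). Atf3, a stress-induced factor that binds cyclic AMP response elements, had 1.8, 2.19 and 1.97 CPM in 3NC against 0.32 to 1.23 elsewhere (1.68 ± 0.24). Dusp1, a phosphatase that inactivates MAP kinases, had 16.3, 18.4 and 17.2 CPM against 8.49 to 15.2 (0.63 ± 0.09), with 14.4, 15.1 and 15.2 in KD. Against 5NC, KD and OV the log2 fold changes were 2.21, 0.92 and 1.9 for Atf3 and 0.92, 0.21 and 0.76 for Dusp1. Egr2, Atf3 and Dusp1 were not called against KD.

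**Figure D3:**
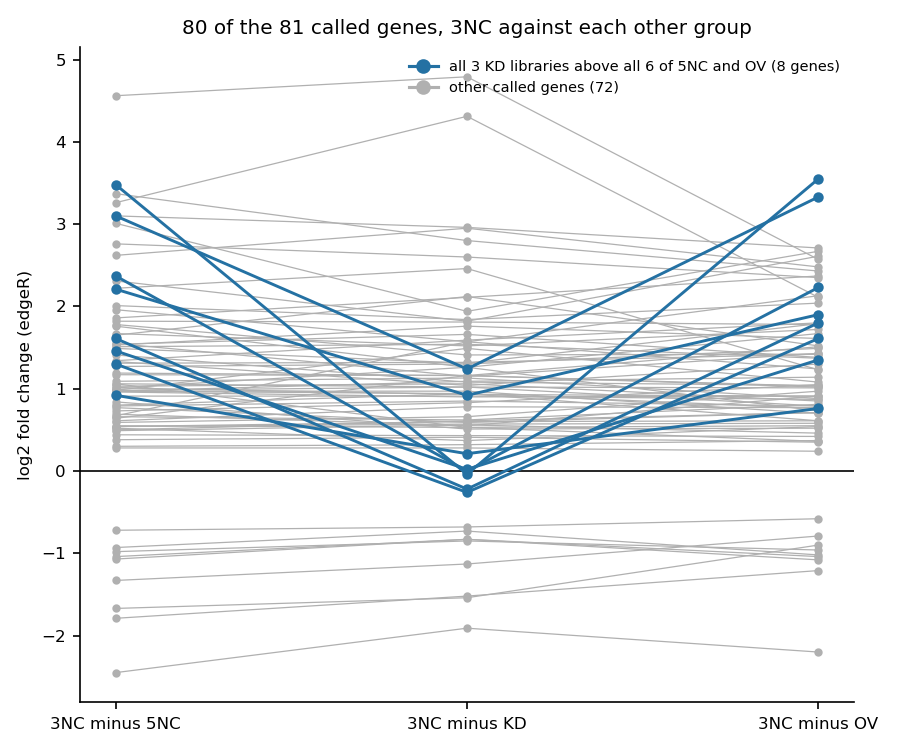
log2 fold change of 3NC against 5NC, KD and OV for 80 of the 81 called genes, 1 line per gene; Cyp3a41a, which has 0 reads in 3NC, is left out. Blue marks the 8 genes whose KD libraries all lie above 5NC and OV; of these, Egr1, Fosb and Junb lie just below 0 against KD (−0.04, −0.26 and −0.22), and the other 72 genes are grey.

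Other early factors, Nr4a2 excepted, were higher in every 3NC library than in every KD library. Log2 fold changes against KD were 2.8 for Myc, 1.84 for Nr4a3, 1.41 for Maff, 1.15 for Fosl2 and −0.05 for Nr4a2. Of these, only Myc and Nr4a3 were called against KD. Myc, the growth-regulating factor (gene 17869, chromosome 15, 61985341 to 61990361), had 4.88, 4.93 and 4.2 CPM in 3NC and 0.319, 0.689 and 1.09 as lowest, median and highest of the others, with a log2 fold change of 2.87 ± 0.23. It was the 1 called gene of the 13 in the MYC network list, whose median was −0.06. Nr4a3, an orphan nuclear receptor of early response, had 9.57, 14.5 and 11.5 CPM against 1.69 to 4.17 (1.96 ± 0.19), while its relative Nr4a2 overlapped the others (1.16, 2.07 and 0.919 CPM against 0.394 to 1.94). Maff, a small MAF factor, had 4.88, 5.24 and 4.59 CPM against 0.999 to 2.76 (1.54 ± 0.21). Fosl2, an AP-1 subunit, had 10.9, 18.6 and 12.5 CPM against 3.64 to 7.9 (1.37 ± 0.21; 1.11 and not called without 3NC replicate 2). In all of these except Nr4a2 the 3NC libraries lay above every other library.

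Ier3, an early response gene that affects survival and ERK signalling, had 6.36, 8.77 and 8.2 CPM in 3NC and 0.749 to 2.42 in the others (median 1.86), a log2 fold change of 2.25 ± 0.2. Of the 13 BTG, ZFP36, IER and GADD45 genes, 3 were called higher (Ier3, Btg2 and Zfp36), 0 lower, and the median was 0.16. Plk3, a stress-responsive kinase on the p53 list, had 2.12, 2.25 and 2.43 CPM against 0.376 to 1.09 (1.8 ± 0.26). Bhlhe40, a repressor in the circadian clock, had 10, 15.1 and 13.1 CPM against 4.91 to 7.24 (1.12 ± 0.14), as the 1 called gene of 19 clock genes with a median of 0.01. The clock median lies near that of all genes tested (0), and the 0.16 of the BTG, ZFP36, IER and GADD45 list lies above it.

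Promoters of the higher 3NC genes were searched for the motifs of the factors named here, and 4 are printed, 1 each for the early factors, the feedback inhibitors, the wound response and sterol synthesis. They are the RefSeq promoter sequences of build GRCm38.p6, the 250 bases before a start site, 5′ to 3′ on the plus strand, with the matched motif in capitals. Egr2 (chr10:67537316-67537565, 1 of 5 listed start sites) shows a CArG box, the element of SRF, starting 72 bases before the start site. Errfi1 (chr4:150854820-150855069, 1 of 2 listed start sites) shows a full cyclic AMP response element at 51 bases before it, Plaur (chr7:24462233-24462482) an AP-1 element at 69, and Hmgcs1 (chr13:119690101-119690350) an SREBP element at 137.
Egr2: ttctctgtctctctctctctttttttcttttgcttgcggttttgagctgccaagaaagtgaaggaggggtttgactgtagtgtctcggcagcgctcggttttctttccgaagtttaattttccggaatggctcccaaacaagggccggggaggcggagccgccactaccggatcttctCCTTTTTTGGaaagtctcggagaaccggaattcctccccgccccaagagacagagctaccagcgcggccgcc
Errfi1: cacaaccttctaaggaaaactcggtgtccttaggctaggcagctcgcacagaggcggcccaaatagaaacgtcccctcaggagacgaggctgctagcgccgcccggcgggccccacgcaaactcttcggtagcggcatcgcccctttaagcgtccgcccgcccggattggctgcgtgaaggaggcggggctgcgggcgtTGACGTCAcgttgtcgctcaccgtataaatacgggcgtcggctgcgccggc
Plaur: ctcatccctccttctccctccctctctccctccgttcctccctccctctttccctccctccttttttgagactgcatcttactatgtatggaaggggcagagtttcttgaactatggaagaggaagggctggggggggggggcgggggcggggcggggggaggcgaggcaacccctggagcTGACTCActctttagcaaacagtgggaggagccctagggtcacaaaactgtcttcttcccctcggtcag
Hmgcs1: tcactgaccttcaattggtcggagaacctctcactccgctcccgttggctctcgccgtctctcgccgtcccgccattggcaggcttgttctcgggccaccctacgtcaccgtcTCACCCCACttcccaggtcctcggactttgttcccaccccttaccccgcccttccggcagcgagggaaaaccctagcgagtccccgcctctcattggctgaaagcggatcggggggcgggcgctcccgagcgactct

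Of the 71 higher genes 52 had a promoter in the table, as had 12905 of all genes tested. In windows of 250 bases before to 50 after the start site, 12 motifs were searched on both strands. A gene counted when any of its listed start sites matched (16301 promoters for the 12905 genes). The number of start sites per gene was not compared between the higher genes and all genes. AP-1 (TGANTCA) was found in 10 of the 52 (19.2%; 6.69% of all tested genes with a promoter), among them Plaur, Emp1, F3, Msmo1 and Tnfaip6. The cyclic AMP response element TGACGTCA was found in 4 (7.69%; 3.15%), which were Btg2, Dusp1, Errfi1 and Maff, and its half-site TGACG, contained in it, in 19 (36.5%; 31.2%). The EGR motif GCGTGGGCG was in 3 (5.77%; 1.22%), the CArG box in Egr2 and Zfp36 (3.85%; 1.57%), and the SREBP element TCACNCCAC in Hmgcs1 and Adamts1 (3.85%; 1.39%). A longer form of the SREBP element, which overlaps the last, was in 0 (0.0697%) and the NF-kB motif in 0 (0.457%). CCAAT was in 26 (50%; 42.8%), TATAAA in 8 (15.4%; 9.67%), and the STAT motifs TTCNNGGAA and TTCNNNGAA in 3 (5.77%; 5.34%) and 8 (15.4%; 8.47%). A match describes these letters only.

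Several feedback inhibitors and signal regulators were higher in 3NC than in every other library. Errfi1, which binds and inhibits the EGF receptor (gene 74155, chromosome 4, 150853796 to 150868889), had 83.5, 87.9 and 75.4 CPM in 3NC and 21.5, 26.1 and 40 as lowest, median and highest of the others. Its log2 fold change was 1.57 ± 0.11, with 1.76, 1.26 and 1.67 against 5NC, KD and OV. Errfi1 and Dusp1 were the 2 called of 12 ERK feedback inhibitors tested, of which 9 were higher and 3 lower, with a median of 0.26.

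Socs3, a feedback inhibitor of cytokine receptors, had 7.52, 14.4 and 10.8 CPM in 3NC and 0.999, 1.63 and 3.78 as lowest, median and highest of the others (2.57 ± 0.27). It was the 1 called gene of 16 in the IL-6 family and SOCS list (11 higher, 5 lower, median 0.12). Osmr, the oncostatin M receptor of the same list, overlapped, with 6.3, 6.51 and 5.25 CPM against 3.19 to 8.59. Trib1, a pseudokinase that marks proteins for degradation, had 13.7, 14.9 and 12.4 CPM against 3.25 to 5.01 (1.64 ± 0.12). Mrap, an accessory protein of the ACTH receptor, had 14.6, 14.2 and 14 CPM against 3.01 to 7.06 (1.58 ± 0.19). Ifrd1, a transcriptional cofactor, had 37.8, 47 and 40.4 CPM against 18.5 to 27.5 (0.95 ± 0.09). None of the 9 other libraries reached 3NC for Socs3, Trib1, Mrap or Ifrd1, a separation that the naming rule required.

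Medag, a gene linked to adipocyte differentiation (gene 70717, chromosome 5, 149367641 to 149431723), had 12.1, 14.2 and 9.71 CPM in 3NC and 0.92, 1.62 and 2.18 as lowest, median and highest of the others. The groups were far apart, and the log2 fold change of 2.93 ± 0.17 was nearly the same against each group (3.1, 2.96 and 2.71 against 5NC, KD and OV). Sema4b, a transmembrane semaphorin, had 27.8, 26.7 and 22.6 CPM against 8.61 to 16.5 (1.18 ± 0.12). Itga5, a fibronectin receptor subunit, had 9.19, 7.91 and 8.8 CPM against 1.62 to 4.1 (1.76 ± 0.2). Itga5 was the 1 called gene of 23 integrin and focal adhesion genes, of which 10 were higher and 13 lower, with a median of −0.05.

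Among secreted ligands, 3 of 20 chemokine genes tested were called higher (15%, against 0.435% of all genes tested) and 0 lower. Ccl2, which draws monocytes, had 3.47, 3.53 and 2.49 CPM in 3NC and 0, 0.131 and 1.22 as lowest, median and highest of the others, or 150 reads in 3NC, 6 in 5NC, 5 in KD and 25 in OV. Its neighbour on chromosome 11, Ccl7, a related monocyte chemokine, had 2.96, 4.38 and 1.97 CPM against 0.0648 to 0.897, or 148, 15, 7 and 34 reads in 3NC, 5NC, KD and OV. Cx3cl1, a membrane-bound chemokine, had 7.58, 10.2 and 6.56 CPM against 1.44 to 4.1. For all 3 genes every 3NC library was above every other, and the highest of the others was OV replicate 1. The log2 fold changes were 3.97 ± 0.52 for Ccl2, 3.22 ± 0.31 for Ccl7 and 1.63 ± 0.22 for Cx3cl1. The chemokine list as a whole had a median of 0.18 (11 higher, 9 lower), and 0.07 without 3NC replicate 2.

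Macrophage markers, the cells that monocyte chemokines attract, were mostly lower in 3NC. Of 20 macrophage markers 18 were lower in 3NC and 2 higher, 0 were called, and the median was −0.35; their summed level was 480 to 580 CPM in 3NC, 516 to 542 in 5NC, 487 to 527 in KD and 575 to 762 in OV, and each marker had a read in 3NC. By group the macrophage median was −0.25 against 5NC, 0.09 against KD and −0.94 against OV. Cd14, the lipopolysaccharide co-receptor, was one of the 2 higher, with 4.69, 7.3 and 5.32 CPM in 3NC against 0.46 to 5.64, ranges that overlap. Lymphocyte and granulocyte markers summed to 14.1 to 21.9 CPM in 3NC and 17.9 to 40.3 elsewhere, with 0 of 10 tested called. The part of these cells in the chemokine values was not tested.

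Of 14 growth factor and wound response genes tested, 9 were higher and 5 lower, and the median was 0.34. In the list 4 were called higher (28.6%, against 0.435% of all genes tested) and 0 lower. The mean deviation of the list per library was 0.24, 0.39 and 0.25 in 3NC, close to 5NC replicate 1 (0.22) and OV replicate 1 (0.17). Plaur, the urokinase receptor, had 1.29, 1.03 and 1.31 CPM in 3NC against 0 to 0.313, or 57 reads in 3NC and 9, 7 and 10 in 5NC, KD and OV (2.68 ± 0.44). Thbs1, a matrix glycoprotein that activates TGF-beta, had 6.49, 7.24 and 5.51 CPM against 2.63 to 4.25 (1 ± 0.16), and Adamts1, a matrix protease, 5.4, 11 and 5.25 CPM against 1.79 to 4.36 (1.17 ± 0.23). In each of these 3 genes the 3NC libraries stood above the rest. These calls depended on single libraries. Plaur was lost without 3NC replicate 1 or 3 (2.5 to 2.88 over the rounds), Thbs1 without 3NC replicate 1 or 2 (0.9 to 1.1), and Adamts1 in 9 of 12 rounds (0.73 to 1.35).

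Hyaluronan synthesis had 2 called genes of 14, both higher. Ugdh, which makes the glucuronic acid precursor of hyaluronan, had 11, 16.9 and 11.5 CPM in 3NC against 3.57 to 6.47 (1.53 ± 0.16). Tnfaip6, a secreted hyaluronan-binding protein, had 2.06, 2.86 and 1.77 CPM against 0.256 to 1.04 (1.89 ± 0.3; 1.66 and not called without 3NC replicate 2). The list median was 0.13. Of 24 collagen, laminin and matrix genes 0 were called, 19 were lower and 5 higher (median −0.08).

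Cholesterol synthesis was the list in which nearly all members were higher in 3NC. Of 22 tested, 21 were higher and 1 lower (8008 and 8312 over all genes tested). In the list 8 were called higher (36.4%, against 0.435% of all genes tested) and 0 lower. Of the 22, 10 had all 3 libraries above all 9 others (0.888% of all genes tested). The median log2 fold change was 0.37 (0.34 without 3NC replicate 2, and 0 over all genes). Against 5NC, KD and OV the list median was 0.33, 0.37 and 0.48.

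Insig1, the sterol-sensing retention factor of SREBP and itself an SREBP target (gene 231070, chromosome 5, 28071412 to 28078662), had 51.5, 63.6 and 47.3 CPM in 3NC and 17.7, 22.1 and 27.3 as lowest, median and highest of the others. Its log2 fold change of 1.29 ± 0.1 was the largest of the list. Hmgcs1, the synthase that makes HMG-CoA (promoter above), had 198, 228 and 162 CPM against 100 to 146 (0.69 ± 0.11; lost without 3NC replicate 1 or 2, 0.56 to 0.8). Further along the pathway, Lss, which closes the sterol rings, had 36.2, 48.1 and 43.5 CPM against 19.9 to 33.2 (0.72 ± 0.1), and Cyp51, the lanosterol demethylase, 150, 182 and 159 CPM against 102 to 133 (0.47 ± 0.07). Hsd17b7, a sterol ketoreductase, had 13.9, 17.2 and 14.6 CPM against 5.64 to 10.2 (0.87 ± 0.15; lost without 3NC replicate 2 or 3, 0.77 to 0.93). None of these genes overlapped the other libraries.

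Msmo1, a sterol methyl oxidase, was also called; it falls outside the naming rule and was picked after its values were seen. Msmo1 had 72.4, 91.1 and 63.3 CPM in 3NC against 25.4 to 45.7 (1.06 ± 0.18). It lay above all other libraries, with the call lost in 6 of 12 rounds (0.91 to 1.18). Over the list, the mean deviation per library in log2 units was 0.3, 0.42 and 0.33 in 3NC, against −0.38 to 0.16 in the other 9 libraries.

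Leydig cell and steroidogenesis genes did not follow as a list: 13 of 21 were higher and 8 lower, 2 were called higher and 0 lower, and the median was 0.03. The called ones were Fdx1, the electron donor of mitochondrial steroid P450 enzymes, with 52.3, 65 and 48.3 CPM in 3NC against 30.1 to 42.2 (0.6 ± 0.1; lost without 3NC replicate 2, 0.47), and Stard4, a sterol carrier, with 19.8, 22.4 and 20 CPM against 11.4 to 16.5 (0.58 ± 0.11; lost in 4 of 12 rounds, 0.52 to 0.64). Star, which brings cholesterol into mitochondria, had 235, 389 and 274 CPM in 3NC against 84.9 to 232, a separation without a call (0.82 ± 0.27), and was picked after its values were seen. Summed Leydig markers were 3190 to 3610 CPM in 3NC, 2990 to 4330 in 5NC, 2700 to 3600 in KD and 2330 to 3310 in OV. Whether the amount of Leydig cells has a part in the sterol values was not tested.

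Redox and metal genes gave 2 called of 21 NRF2 targets (median 0.07). Hmox1, which degrades haem, had 20.2, 19.7 and 23.5 CPM in 3NC against 8.12 to 16.4 (0.95 ± 0.16; lost without any 1 of the 3NC libraries, 0.86 to 1.07). Bach1, the haem-binding repressor of Hmox1, had 8.55, 9.92 and 7.68 CPM against 3.75 to 5.26 (0.89 ± 0.12). Both stood above the rest, the enzyme and its repressor alike. Mt2, a metallothionein, had 131, 135 and 149 CPM against 100 to 116 (0.33 ± 0.06; lost without 3NC replicate 3 or KD replicate 1, 0.27 to 0.37).

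The next genes were called but lie outside the naming rule; they were picked for mention after their values were seen, belong to no list, and stand for no group. F3, tissue factor, which starts coagulation, had 8.23, 9.92 and 6.43 CPM in 3NC against 2.43 to 4.03 (1.35 ± 0.18), and Thbd, the anticoagulant thrombomodulin, 6.68, 9.86 and 8.2 CPM against 2.26 to 4.53 (1.22 ± 0.18). Both were above every other library. Nr1h4, the bile acid receptor FXR, had 59 reads in 3NC and 7, 15 and 9 in 5NC, KD and OV (2.54 ± 0.33). C5ar1, the receptor of complement C5a, had 84 reads in 3NC and 23, 19 and 16 in the others (2.12 ± 0.4; lost in 7 of 12 rounds, 1.95 to 2.47). Emp1, a tetraspan membrane protein, had 10.7, 12.6 and 8.01 CPM in 3NC against 2.43 to 5.01 (1.47 ± 0.2). Both receptors and Emp1 had 3NC above all other libraries.

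Gfpt2, which feeds glucose into hexosamine synthesis, had 9.32, 10.5 and 8.2 CPM in 3NC against 4.14 to 5.87 (0.89 ± 0.13). Gcnt4, St3gal1 and B4galt5, which encode glycosyltransferases, had log2 fold changes of 0.93 ± 0.16, 0.81 ± 0.14 and 0.57 ± 0.1, each without overlap, and were lost in 2, 3 and 5 of 12 rounds (0.86 to 0.99, 0.76 to 0.86 and 0.53 to 0.61). Mat2a, which makes S-adenosylmethionine, had 180, 200 and 168 CPM in 3NC against 118 to 150 (0.5 ± 0.08). Chka, choline kinase, had the smallest fold of the higher genes, with 159, 170 and 156 CPM against 128 to 144 (0.27 ± 0.05; lost in 9 of 12 rounds, 0.23 to 0.29). Mat2a and Chka lay above all 9 other libraries with small differences.

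Genes lower in 3NC were fewer. Txnip (gene 56338, chromosome 3, 96557957 to 96561857) had 44.9, 58.4 and 52.1 CPM in 3NC and 84.2, 103 and 136 as lowest, median and highest of the others, a log2 fold change of −0.98 ± 0.13. Osr1 (gene 23967, chromosome 12, 9574442 to 9581500) had 0.578, 0.365 and 0.459 CPM in 3NC and 1.21, 2.12 and 3.42 as lowest, median and highest of the others, −2.19 ± 0.3. In both genes the 3NC libraries lay below all others, and both calls held in all 12 rounds. The FOXO and glucocorticoid target list, which holds Txnip, was split: 2 of 18 were called higher (Pdk4 and Mt2) and 2 lower (Txnip and Fbxo32), with a median of 0.09. Pdk4, an inhibitor of pyruvate dehydrogenase, had 5.46, 8.16 and 5.51 CPM in 3NC against 2.36 to 5.32 (1.0 ± 0.2), and Fbxo32, a ubiquitin ligase subunit of muscle wasting, 0.9, 1.58 and 0.656 CPM against 1.62 to 4.34 (−1.37 ± 0.28).

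Regulators of development were among the other lower genes. Nr2f2, the nuclear receptor COUP-TFII of stromal cells, had 4.43, 3.59 and 3.81 CPM in 3NC against 4.91 to 8.68 (−0.89 ± 0.17). Boc, a co-receptor of hedgehog ligands, had 4.76, 6.27 and 5.45 CPM against 7.21 to 10.4 (−0.66 ± 0.14). Amotl2, an angiomotin family protein, Adamts5, an aggrecan-cleaving protease, and D430019H16Rik, a gene of unclear function, had log2 fold changes of −0.98 ± 0.19, −0.93 ± 0.19 and −1.08 ± 0.21. In each, 3NC lay below all 9 libraries, as the naming rule required. Calls were lost in many rounds: in all 12 for Boc (−0.77 to −0.57), 10 for Adamts5 and Pdk4, 9 for Fbxo32, 8 for D430019H16Rik and 7 for Amotl2 and Nr2f2, always with the same sign.

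Cyp3a41a, a cytochrome P450 with close paralogues beside it, so that its reads are uncertain, had 0 reads in 3NC and 22, 30 and 69 in 5NC, KD and OV. Against a floor of 3 reads over the group the others were 13.4-fold higher, and at least 10.8-fold by the 95% exact bound, which covers counting error only. This was the 1 called gene without a read in 3NC.

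Markers of supporting, vascular and immune cells were mostly a little lower in 3NC than in the mean of the other groups, with hardly any calls. Sertoli cell markers had summed levels of 1340 to 1670 CPM in 3NC against 1460 to 2330 elsewhere. Per library, the mean deviation of the Sertoli list was 0.04, −0.18 and −0.1 in 3NC. It was −0.13 and −0.1 in OV replicates 2 and 3, and highest, at 0.4, in 5NC replicate 1, so low values were not confined to 3NC. Of these 27 markers 25 were lower and 2 higher (8312 and 8008 over all genes tested). Their median was −0.09 (−0.27, −0.08 and −0.07 against 5NC, KD and OV). The called one went the other way: Kitl, the ligand of the receptor KIT on germ cells, had 26.5, 43.8 and 29.7 CPM in 3NC against 15.1 to 22 (0.78 ± 0.12), each 3NC library above all others. Kit itself overlapped, with 27.7, 26.8 and 25.4 CPM against 23.4 to 42.8. Endothelial markers were lower in 15 of 18 (median −0.2, 0 called), with Cldn5, a tight junction protein, at 5.59, 3.83 and 4.27 CPM in 3NC against 6.15 to 8.36. The endothelial list was not low in 3NC alone. Its mean deviation per library was −0.17 to −0.13 in 3NC, and −0.15 and −0.16 in OV replicates 2 and 3. Peritubular and stromal markers were split (12 of 19 lower, median −0.02, 0 called). Within that list, Tagln, a smooth muscle protein, had 17.4, 15 and 15.2 CPM against 7.21 to 13.1, and Tcf21, a factor of stromal progenitors, 1.16, 1.34 and 0.788 CPM against 1.5 to 3.05.

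**Figure D4:**
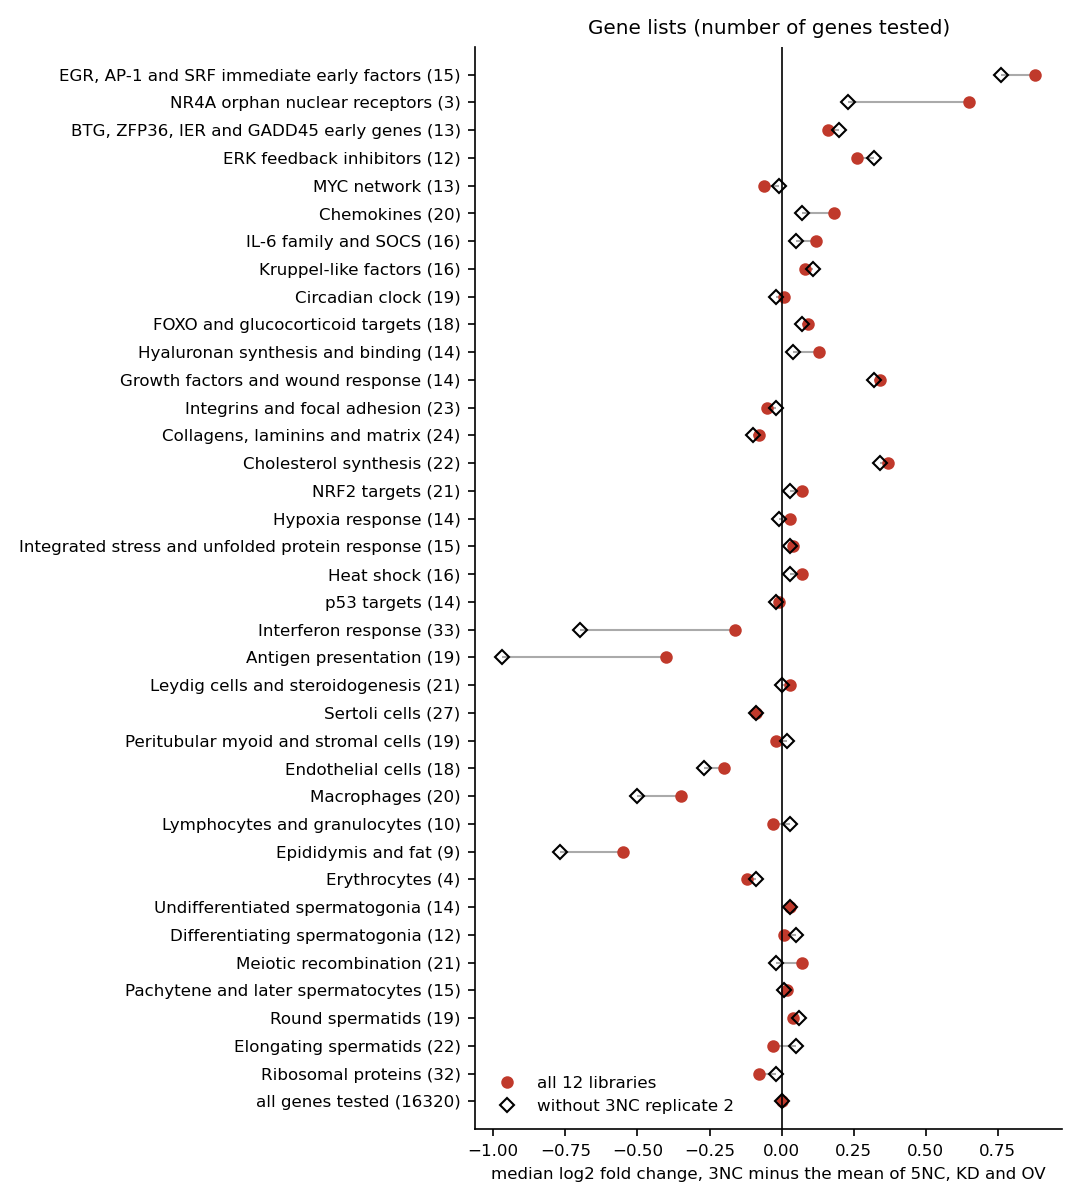
Median log2 fold change of each gene list in 3NC minus the mean of 5NC, KD and OV (red dots), and the same without 3NC replicate 2 (open diamonds); the number of genes tested stands in brackets. Immediate early factors (0.88) and cholesterol synthesis (0.37) lie to the right with and without that library, and interferon response moves from −0.16 to −0.7 when it is left out.

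Immune response lists depended on 1 library of 3NC. Interferon response genes were lower in 22 of 33 (median −0.16, 0 called) and antigen presentation genes in 18 of 19 (median −0.4, 0 called). Without 3NC replicate 2 the medians were −0.7 and −0.97. By group the interferon median was −0.12 against 5NC, 0.76 against KD and −1.22 against OV, with 3NC replicate 2 included. Per library, the mean deviation of the interferon list was −0.64, 0.56 and −0.44 in 3NC, −0.82 to −0.59 in KD and 0.25 to 1.29 in OV. Per library, the mean deviation of the antigen presentation list was −0.74, 0.34 and −0.62 in 3NC, −0.65 to −0.5 in KD and 0.42 to 1.53 in OV. H2-K1, a class I heavy chain whose reads may be shared with other H2 genes, had 62.9, 101 and 66.9 CPM in 3NC against 65.9 to 247.

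**Figure D5:**
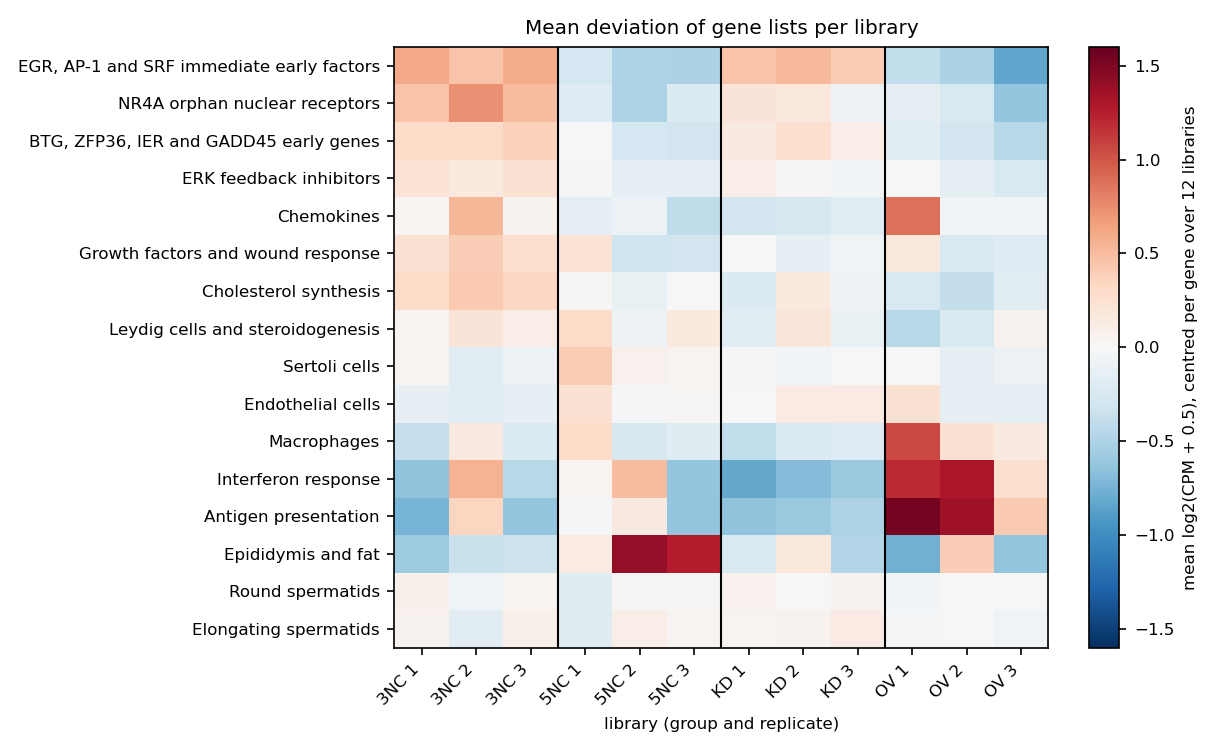
Mean log2(CPM + 0.5) of each list in each library, after centring every gene over the 12 libraries; red is above and blue below the gene mean. The EGR, AP-1 and SRF list is red in 3NC and KD and blue in 5NC and OV, cholesterol synthesis is reddest in the 3 libraries of 3NC (0.3 to 0.42), and the immune lists set 3NC replicate 2 (0.56 for interferon response) apart from replicates 1 and 3 (−0.64 and −0.44).

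Germ cells showed little. Medians were 0.03 for undifferentiated and 0.01 for differentiating spermatogonia, 0.07 for meiotic recombination, 0.02 for pachytene and later spermatocytes, 0.04 for round spermatids and −0.03 for elongating spermatids, with 0 called in each list. Spo11, which makes the meiotic double-strand breaks, had 48.7, 45.4 and 49.2 CPM in 3NC against 29.1 to 45, a separation without a call (0.34 ± 0.1). Akap4, a scaffold of the sperm tail, had 2390, 2620 and 2280 CPM against 1830 to 2640. Ribosomal protein genes were lower in 30 of 32 (8312 of 16320 over all genes tested), by a median of −0.08 (−0.02 without 3NC replicate 2). Hypoxia (0.03), heat shock (0.07), integrated stress and unfolded protein response (0.04), p53 target (−0.01) and Kruppel-like factor (0.08) lists lay near 0, with Plk3 as the only called gene among them. Epididymis and fat markers (median −0.55, 0 of 9 tested called) summed to 23.9 to 28.4 CPM in 3NC and 20 to 148 elsewhere, and erythrocyte markers to 54.5 to 62.9 CPM and 31 to 124.

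Set against each other group in turn, with the same 3NC libraries in each comparison, 3NC differed in 59 genes from 5NC (0.362%; 0.288% higher, 0.0735% lower), in 29 from KD (0.178%; 0.153% and 0.0245%) and in 52 from OV (0.319%; 0.276% and 0.0429%). The 71 higher genes had median log2 fold changes of 1.17, 1.06 and 1.14 against 5NC, KD and OV, and the 10 lower ones −1.2, −0.99 and −1.03. Of the 71, 44 were also called against 5NC, 25 against KD and 42 against OV, and of the 10, 6, 3 and 4. In all 3 comparisons 23 of the 81 genes were called, and 24 were called in none. The higher genes had a positive fold change in 71 of 71 against 5NC and OV and in 68 of 71 against KD, the exceptions being Egr1, Fosb and Junb (−0.04, −0.26 and −0.22).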

How the data were processed

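RNA from whole testis of 12 samples was sequenced, and 1 deposited table was used. It holds expected counts (estimated reads per gene, not normalised, per the file headers; 88% whole within 1e-06), which were rounded, and values made by the authors whose unit, FPKM, was inferred from the values and not stated. The build was mm10 per the submitters' processing notes; aligner, counter, annotation and strandedness were not stated in the sources used here, so overlapping and antisense genes cannot be told apart. In the same table, 18 per-sample columns were not used. Of 20718 identifiers, 20564 matched RefSeq (GRCm38.p6).

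edgeR 4.0.16 (R 4.3.3) fitted all 4 groups without covariates (robust quasi-likelihood, TMM, filterByExpr with minimum count 10 and total 15), leaving 16320 genes. The common biological coefficient of variation was 0.13. The contrast was 3NC minus the mean of the 5NC, KD and OV coefficients; calls needed a Benjamini-Hochberg adjusted p under 0.05. Fold changes use a prior count of 0.125. The SE, the fold change (log2) divided by the square root of F, is approximate. The contrast, members and 37 gene lists (689 entries, 684 in the table, 637 tested) were chosen with earlier results of these data known, so calls describe and support nothing by themselves. Named genes are called genes of at least 1 CPM without overlap, up to 15 higher (15) and 15 lower (9) by p, and up to 6 called members per list, or the 2 of smallest p where fewer than 2 were called; a few such genes are not reported here. Alternatives were DESeq2 1.42.0, limma 3.58.1 (voom with sample weights; log2(FPKM + 1) and log2(FPKM + 0.1)), other scaling and filters, a replicate block, a fit of 2 groups, and leaving out libraries.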

Additional observations from a re-analysis of the deposited data

How the results depend on the processing

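The 81 genes kept their sign in all 22 alternatives that tested them (75 were tested with a 1 CPM filter), and 28 were called in every one. All alternatives draw on the libraries that picked the 81, so a kept sign describes the fits and adds no independent support. Counts of calls moved more. For 3NC against the other 3 groups voom called 160. For 3NC against 5NC, DESeq2 called 148, voom 134 and limma on FPKM 32 (+ 1) and 31 (+ 0.1). Against KD the counts were 71 (DESeq2), 106 (voom) and 16 (FPKM + 0.1), and against OV 108, 203 and 28. Differences among 5NC, KD and OV gave 222 with DESeq2 and 218 with voom. For 5NC against the rest the counts were 76 (DESeq2), 11 (no filter), 16 (voom), and 3 on either FPKM scale. For KD they were 19 (DESeq2) and 32 (voom), and for OV 141, 270, and 5 on either FPKM scale. The cause was not tested.

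Leaving out 1 library gave 44 to 88 calls for 3NC against the rest, 16 to 76 against 5NC, 10 to 34 against KD, 27 to 81 against OV and 5 to 53 among the other groups. For 5NC, KD and OV against the rest it gave 2 to 30, 4 to 11 and 3 to 132, the last without 3NC replicate 2. Without 3NC replicate 2 and OV replicates 1 and 3 together, chosen after seeing the data, counts were 67 for 3NC (54 of the 81 kept), 50 among the others, 3 for 5NC and 51 for OV.

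Replicate numbers are shared by the groups, but same-numbered libraries of 3NC and the other groups had correlations of deviations of −0.18 to 0.056, so the numbers were not taken as pairs. With a replicate block, 66 genes were called for 3NC (65 of the 81), 29 for 3NC against OV, 17 among the others and 51 for OV against the rest.

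Fold changes that changed sign belong to genes that were not called: Fos (−0.3 in a fit of 2 groups), Spdya (−0.03 with voom; −0.04, without 3NC replicate 2, to 0.31 over the left-out libraries) and Hba-a1 (0.07 without the 3 libraries; −0.38 to 0.09, without OV replicate 1, over the left-out libraries). Depth limits the genes under 1 CPM, of which 6 are among the 81.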
